A study of Mus musculus with 12 samples.

Results

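The effect of dexamethasone (Dex), a synthetic glucocorticoid, was measured in the ileum of mice that had drunk zinc sulfate (ZnSO4). The members are the 6 libraries of a series of 12 whose labels give ZnSO4 in the drinking water, 3 of them with Dex and 3 with PBS. All mice were female C57BL/6J, were kept specific pathogen-free and were aged 8 to 14 weeks. The ZnSO4 + PBS and the ZnSO4 + Dex mice shared a week (7 days) of 25 mM ZnSO4 in the drinking water and differed in the intraperitoneal injection, which held 200 µg Dex in PBS or PBS alone. The washed ileum was taken 2 h after the injection, and every library came from another mouse. The other 6 libraries came from mice on normal drinking water with the same injections, and they are used here to set the Dex effect of the ZnSO4 mice beside that of water mice. The study asked with this design whether zinc alters transcription by the glucocorticoid receptor.

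Glucocorticoids act through the glucocorticoid receptor, a zinc-finger transcription factor that lies in the cytosol with chaperones until hormone binds it. In the nucleus, receptor dimers bind palindromic glucocorticoid response elements and induce genes, and the receptor also represses genes driven by inflammatory factors such as NF-kB, AP-1 and interferon regulatory factors. In the intestine, glucocorticoids are known for raising sodium absorption, for gluconeogenic gene expression and for damping inflammation. Zinc in the gut lumen is known to induce metallothioneins, small proteins that bind metal.

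The ZnSO4 libraries held 10870740 to 11827487 counts of which 3.72% to 4.46% came from the mitochondrial genome. Each tested gene was fitted with edgeR's quasi-likelihood test, and p-values were adjusted by the Benjamini-Hochberg method over all 15938 genes tested. A gene was called up- or downregulated at an adjusted p below 0.05 and a log2 fold change (LFC) beyond 0.8 in size. Values per mouse are given as normalised counts, that is counts scaled to a library of 11377723, and are listed in the order of replicates 1, 2 and 3. The ± beside an LFC is its standard error.

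The markers of ileal enterocytes fitted the labelled tissue. Fabp6, the ileal bile acid binding protein, reached 88620, 48390 and 40670 normalised counts in the ZnSO4 + PBS mice and 60090, 43320 and 60450 in the ZnSO4 + Dex mice. ZnSO4 + Dex replicate 2 stood apart from its replicates. The sum of 12 enterocyte markers was 139000 normalised counts in this mouse, against 264300 and 324500 in the other ZnSO4 + Dex mice and 260300 to 304300 in the ZnSO4 + PBS mice, and it was the lowest of the 6 mice for 9 of the 12 markers. This mouse was the highest of the 6 for 8 of 10 Paneth cell markers. The sum of 13 markers of B cells and lymphoid follicles, structures that lie scattered along the ileum, was 1551, 7809 and 274.2 in the ZnSO4 + PBS mice and 314.2, 370.8 and 1345 in the ZnSO4 + Dex mice. None of these 13 markers passed the test, and the groups overlapped. The tissue was whole ileum, so fewer cells of a type and less RNA per cell cannot be told apart in any result below.

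**Figure D1:**
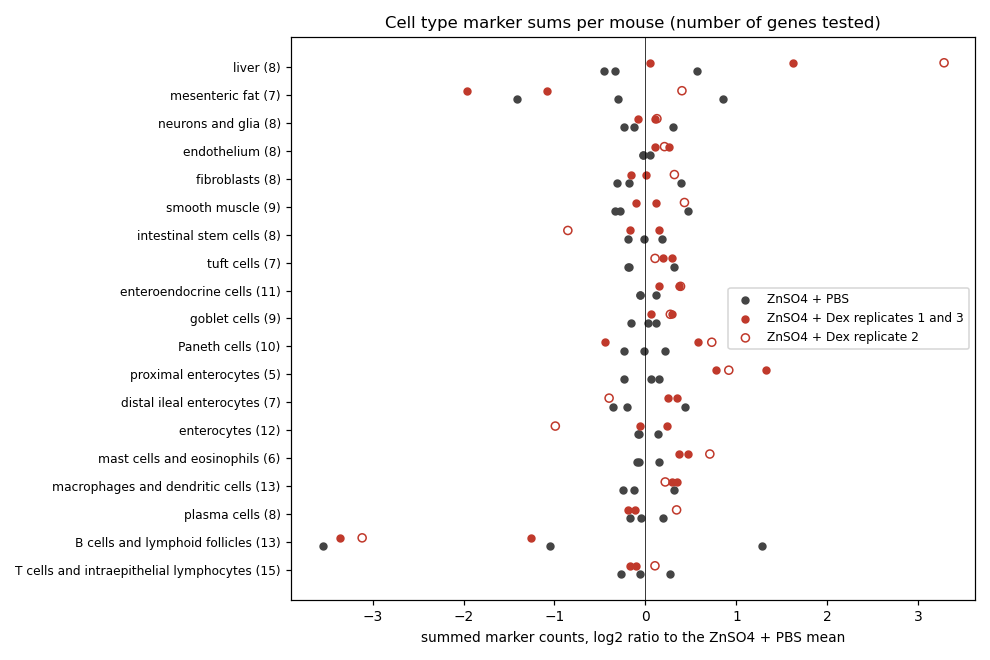
Summed normalised counts of the markers of 19 cell types in each ZnSO4 mouse, as log2 ratio to the mean of the 3 ZnSO4 + PBS mice (x axis), with the number of markers tested in brackets. The open circle of ZnSO4 + Dex replicate 2 lies to the left of all other mice for enterocytes (139000 against 260300 to 324500), and B cell sums ranged from 274.2 to 7809.

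In mice on ZnSO4, Dex upregulated 543 genes and downregulated 383 within 2 h, which is 3.41% and 2.4% of the genes tested and 5.81% together. Without ZnSO4 + Dex replicate 2 the counts were 534 and 324, of which 462 and 276 were among the genes called with it. The upregulated genes moved further than the downregulated ones. Of the upregulated genes, 132 exceeded an LFC of 2 and 51 an LFC of 3, against 40 and 3 of the downregulated genes, and the median LFC was 1.34 and -1.09. Protein-coding genes made up 477 of the upregulated and 353 of the downregulated genes. The values of the 3 ZnSO4 + Dex mice lay above those of all 3 ZnSO4 + PBS mice for 538 of the 543 upregulated genes, and below them for 381 of the 383 downregulated genes. Over all genes tested, calls or not, the groups of 3 did not overlap for 29.1% of genes. The called genes nearest to the cut-off had an LFC of 0.801 to 0.804 in the upregulated and 0.801 to 0.811 in size in the downregulated group, and the genes nearest outside had 0.797 to 0.799 and 0.793 to 0.8. The median LFC over all genes tested was 0.009. At an adjusted p below 0.05 with no cut-off on size, 1060 genes (6.65%) had a positive and 1129 (7.08%) a negative LFC.

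**Figure D2:**
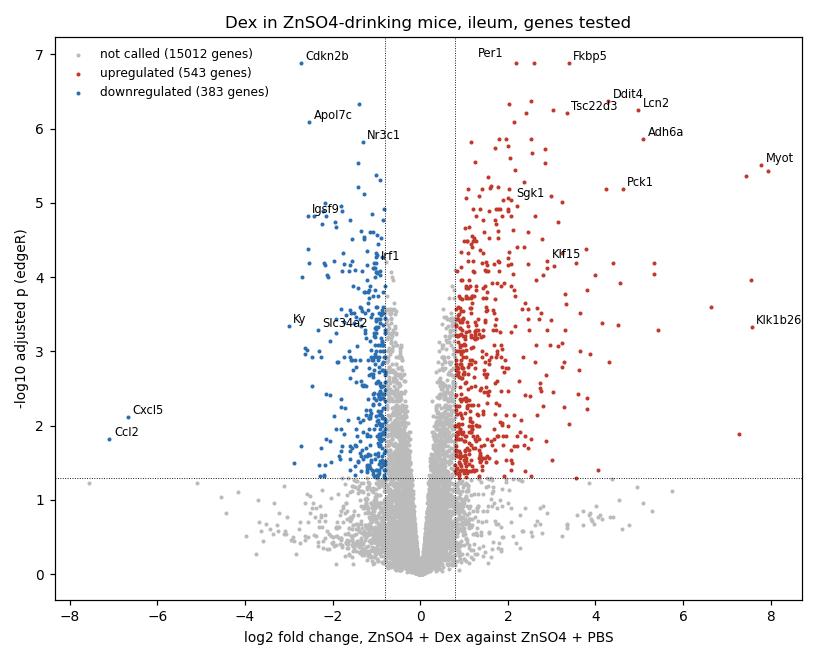
LFC of Dex in ZnSO4 mice (x axis) against -log10 of the adjusted p (y axis) for 15938 genes. Red points are the 543 upregulated and blue points the 383 downregulated genes, and dotted lines mark the cut-offs of 0.8 and 0.05. The fitted positions of Ccl2, Cxcl5 and Klk1b26 rest on a group with no read and are not fold changes.

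Genes long known to be induced by glucocorticoids rose together. Of 26 such genes, all tested, 20 (76.9%) were upregulated and 0 downregulated, where 3.41% of all genes tested were upregulated. The median LFC of the 26 genes was 1.6, beside 0.009 for all genes tested and 1.54 for the same genes in water mice. The count ranged from 16 to 23 when each ZnSO4 library was left out in turn, and it was 23 without ZnSO4 + Dex replicate 2.

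Fkbp5 (ENSMUSG00000024222, mm10 chr17:28399094-28517527, minus strand), a co-chaperone that lowers the affinity of the glucocorticoid receptor for hormone, had 1116, 950.0 and 1116 normalised counts in the ZnSO4 + PBS mice and 12210, 10260 and 10810 in the ZnSO4 + Dex mice. This was a 10.5-fold rise, with an LFC of 3.39 ± 0.13 (adjusted p = 1.3e-07), and the groups lay far apart. Tsc22d3, which encodes the anti-inflammatory leucine zipper protein GILZ, rose from 549.7, 666.2 and 665.0 to 6908, 5540 and 6589, an LFC of 3.34 ± 0.17 (adjusted p = 6.2e-07). The clock gene Per1 rose from 180.1, 188.5 and 186.2 to 942.5, 778.2 and 807.4, with little spread in either group and an LFC of 2.19 ± 0.09 (adjusted p = 1.3e-07). The largest rises of this group belonged to Ddit4, an inhibitor of the growth kinase complex mTORC1, with an LFC of 4.30 ± 0.20 (adjusted p = 4.2e-07), and to Hif3a, a hypoxia-inducible factor subunit, with 4.24 ± 0.31 (adjusted p = 6.6e-06). Klf15 and Klf9, Krüppel-like factors, had LFCs of 2.90 and 1.19, and the other 12 tested Krüppel-like factors were not called. The 6 genes of the group that were not called were Irs2, Rhob, Cebpd, Mertk, Cebpb and Anxa1. Irs2 (LFC 0.797, adjusted p = 0.018) and Rhob (0.75, adjusted p = 0.011) passed the adjusted p and missed the cut-off on size. Cebpd had an LFC of 1.13 at an adjusted p of 0.12, and its ZnSO4 + PBS values of 132.9, 486.9 and 454.8 were spread widely. Anxa1, which encodes annexin A1, had an LFC of 0.06 (adjusted p = 0.82).

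**Figure D3:**
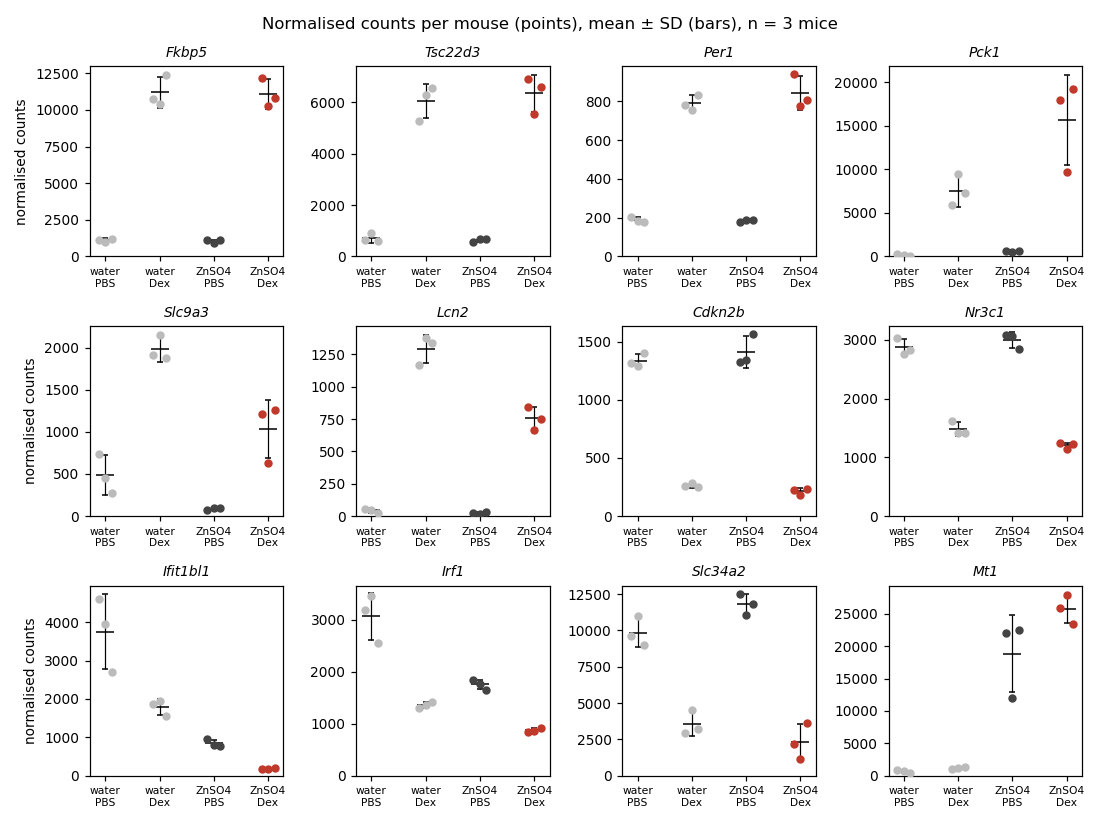
Normalised counts (y axis) of 12 genes in each mouse (points) with mean and SD (bars, n = 3 mice), for mice on water (grey) and on ZnSO4 (black with PBS, red with Dex). Fkbp5 reached 10260 to 12210 in the ZnSO4 + Dex mice from 950.0 to 1116, Pck1 and Slc9a3 were lowest of the ZnSO4 + Dex mice in replicate 2, and Mt1 had an LFC of 0.45 at an adjusted p of 0.27.

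The promoters of the called genes were read for the glucocorticoid response element, written as the palindrome GNACANNNTGTNC, which reads alike on both strands. RefSeq promoter sequences (GRCm38.p6), which run from 250 bases before to 50 bases after each start, were at hand for 385 upregulated and 282 downregulated genes. The palindrome stood in 11 of 518 promoters of upregulated genes (2.12%), in 0 of 359 promoters of downregulated genes, and in 0.343% of the promoters of tested genes that were not called. Over all 32851 mouse promoters the share was 0.475%. The promoters that hold it belonged to 10 upregulated genes, among them Sgk1, Txnip, Fam107a and Kcna5. Their windows are shown as examples of the element upstream of genes that rose with Dex under ZnSO4, with the palindrome in capitals and each sequence 5′ to 3′ on the strand of its gene:
Sgk1 (chr10:21993658-21993757, plus strand): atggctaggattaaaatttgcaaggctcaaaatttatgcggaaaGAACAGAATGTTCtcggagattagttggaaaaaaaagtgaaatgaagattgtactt
Txnip (chr3:96557741-96557840, plus strand): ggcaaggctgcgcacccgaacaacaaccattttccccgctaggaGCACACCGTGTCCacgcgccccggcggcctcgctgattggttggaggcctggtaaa
Fam107a (chr14:8309842-8309941, minus strand): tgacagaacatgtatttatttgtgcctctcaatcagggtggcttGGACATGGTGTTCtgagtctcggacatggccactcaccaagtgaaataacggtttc
Kcna5 (chr6:126535559-126535658, minus strand): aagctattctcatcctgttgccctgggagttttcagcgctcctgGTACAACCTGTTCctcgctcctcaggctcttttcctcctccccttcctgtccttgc

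Sgk1 encodes the glucocorticoid-inducible kinase that activates sodium transport. It rose from 4574, 4477 and 5007 normalised counts to 22870, 14640 and 21720, an LFC of 2.08 ± 0.16 (adjusted p = 9.2e-06). Txnip, an inhibitor of thioredoxin that also lowers glucose uptake, rose from 4789, 4694 and 4430 to 23540, 15850 and 22890, an LFC of 2.16 ± 0.14 (adjusted p = 3.6e-06). The counts of Txnip carry a doubt, since 19.4% of its exonic length overlaps a gene on the other strand and the strand setting of the counting is not given in the sources used here. Fam107a, an actin-binding stress protein, rose from 23.6, 19.2 and 25.9 to 184.6, 190.2 and 173.0 (LFC 2.99 ± 0.22, adjusted p = 8.1e-06). Kcna5, a voltage-gated potassium channel, rose from 17.9, 15.6 and 25.9 to 86.1, 96.1 and 67.3 (LFC 2.06 ± 0.29, adjusted p = 0.00054). In each of the 4 genes the groups did not overlap. A match of letters is a description and does not show that the receptor binds there.

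Among the genes of hormone reception, the receptor itself changed most. Nr3c1, which encodes the glucocorticoid receptor, fell from 3084, 3073 and 2839 normalised counts to 1239, 1145 and 1222, an LFC of -1.32 ± 0.08 (adjusted p = 1.5e-06). Of 19 genes of the receptor, its chaperones and cofactors, Nr3c1 was downregulated, the co-repressor Nrip1 was upregulated with an LFC of 0.81 (adjusted p = 0.0039), and 17 were not called. Nrip1 lay just inside the cut-off on size, and its call was lost under 10 of 20 alternatives, with LFCs of 0.69 to 0.80, among them the fits with a B cell covariate and without ZnSO4 + PBS replicate 2 or 3 or ZnSO4 + Dex replicate 1 or 3. Hsd11b2, the enzyme that inactivates corticosterone, rose from 347.0, 421.0 and 592.8 to 1100, 1278 and 1434 (LFC 1.49 ± 0.19, adjusted p = 0.00038). Akr1c14, a hydroxysteroid dehydrogenase, was downregulated with an LFC of -1.08 (adjusted p = 0.0013). Neither Hsd11b1, which regenerates corticosterone (LFC 0.46, adjusted p = 0.077), nor the steroidogenic genes Star and Hsd3b2 were called.

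Of 24 tested metallothioneins and zinc transporters, 1 was upregulated with Dex and 0 downregulated (4.17% called), where 5.81% of all genes tested were called. The count of upregulated members was 0 to 2 when each ZnSO4 library was left out, and 0 without ZnSO4 + PBS replicate 1 or 2 or ZnSO4 + Dex replicate 1. Mt1, a metallothionein, had 21990, 11970 and 22540 normalised counts with PBS and 25810, 27940 and 23480 with Dex, an LFC of 0.45 ± 0.24 (adjusted p = 0.27). Mt2 had 4941, 2670 and 5357 with PBS and 5584, 6598 and 4875 with Dex, an LFC of 0.40 ± 0.30 (adjusted p = 0.45). In both genes the value of ZnSO4 + PBS replicate 2 was the lowest of the 6 mice. The groups overlapped for Mt2 and did not overlap for Mt1. The upregulated gene was Slc30a10, a transporter better known for manganese export, with 398.8, 339.5 and 233.4 against 1454, 370.8 and 735.8 (LFC 1.40 ± 0.38, adjusted p = 0.029). Its groups overlapped, since ZnSO4 + Dex replicate 2 lay below ZnSO4 + PBS replicate 1, and the call was lost without ZnSO4 + Dex replicate 1 (adjusted p = 0.11) or without any of the ZnSO4 + PBS replicates (adjusted p = 0.052 to 0.1). The zinc exporters Slc30a1 (LFC -0.37, adjusted p = 0.25) and Slc30a2 (LFC 0.31, adjusted p = 0.3) and the importer Slc39a4 (LFC -0.20, adjusted p = 0.43) were not called.

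Some metabolic genes rose, and most tested members of their lists were not called. The share upregulated was 23.5% for gluconeogenesis (median LFC 0.34) and 13.6% for fatty acid oxidation (0.1). Over all genes tested it was 3.41%. Of 21 fat absorption genes 1 was upregulated and 1 downregulated (median LFC -0.21). The upregulated gene, Dgat2 (LFC 0.801, adjusted p = 0.041), lost its call under 15 of 20 alternatives. Of 23 genes of sterol and fatty acid synthesis 1 was upregulated and 0 downregulated (median LFC -0.14). Pck1, the phosphoenolpyruvate carboxykinase of gluconeogenesis, rose from 660.0, 562.8 and 686.3 normalised counts to 17930, 9740 and 19240, a 24.6-fold rise with an LFC of 4.62 ± 0.34 (adjusted p = 6.6e-06). Of 17 gluconeogenesis genes 4 were upregulated and 0 downregulated, the others being Tat, tyrosine aminotransferase (LFC 1.96), Got1, aspartate aminotransferase (LFC 1.52), and Slc37a4, the glucose-6-phosphate carrier (LFC 0.82, and 0.75 to 0.78 without ZnSO4 + PBS replicate 2 or ZnSO4 + Dex replicate 1 or 3, where it missed the cut-off on size). Tat is also counted among the liver markers, whose sum was 254.4 to 514.8 with PBS and 1076, 3391 and 360.9 with Dex, and the part of liver RNA in its rise was not tested. G6pc, glucose-6-phosphatase, had an LFC of 1.001 at an adjusted p of 0.15, and Fbp1 an LFC of -0.07 (adjusted p = 0.86). Of 22 genes of fatty acid oxidation, Pdk4 (LFC 3.03), Angptl4 (LFC 3.23) and Ppara (LFC 2.00) were upregulated and Plin2, a lipid droplet protein, was downregulated (LFC -1.02, adjusted p = 0.00037). Angptl4 inhibits lipoprotein lipase, Pdk4 blocks the entry of pyruvate into the citric acid cycle, and Ppara encodes the receptor that drives fatty acid oxidation. Glul, glutamine synthetase, had an LFC of 1.89 (adjusted p = 9.2e-06), with 19.7% of its sequence shared with other genes.

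Some genes of the absorptive surface rose, with a wide spread between mice. Slc9a3, the sodium-proton exchanger NHE3, rose from 73.5, 97.9 and 92.6 to 1210, 635.0 and 1257, an LFC of 3.55 ± 0.36 (adjusted p = 6.5e-05). Slc2a2, the basolateral glucose transporter, rose from 106.5, 25.6 and 13.9 to 1106, 242.1 and 679.2 (LFC 3.79 ± 0.72, adjusted p = 0.0043), and Slc5a1, the sodium-glucose cotransporter, rose from 9317, 7832 and 8603 to 23200, 11350 and 20880 (LFC 1.11 ± 0.21, adjusted p = 0.0045). Slc10a2, the ileal bile acid transporter, rose from 9177, 9656 and 11530 to 25240, 13300 and 29250 (LFC 1.16 ± 0.23, adjusted p = 0.0052). In each of these 4 genes and in Pck1, ZnSO4 + Dex replicate 2, the mouse with the low enterocyte marker sum, was the lowest of the 3 Dex mice and still above every ZnSO4 + PBS mouse; the part of enterocyte RNA in these values was not tested. Of 20 brush border hydrolases and nutrient transporters, Slc2a2 and Slc5a1 were upregulated (10%) and 0 downregulated, where 3.41% of all genes tested were upregulated. The median LFC of the 20 genes was -0.18. Of 22 genes of sodium, chloride and bicarbonate transport, 3 were upregulated (13.6%, Slc9a3, Sgk1 and the guanylate cyclase Gucy2c) and 0 downregulated. On leaving out 1 ZnSO4 library, 2 (without ZnSO4 + Dex replicate 1) to 6 (without ZnSO4 + Dex replicate 2 or ZnSO4 + PBS replicate 1) were upregulated. Slc34a2, the intestinal phosphate cotransporter, went the other way and fell from 12500, 11090 and 11840 to 2195, 1182 and 3646, an LFC of -2.33 ± 0.32 (adjusted p = 0.00051). S100g, the calcium-binding calbindin of enterocytes, was upregulated with an LFC of 1.80 ± 0.35 (adjusted p = 0.0053). Cldn14, a claudin, rose from 0.943, 5.49 and 4.63 to 54.9, 49.0 and 40.6 (LFC 3.66 ± 0.40, adjusted p = 0.0003), while 17 of 19 tight junction genes were not called. Cldn5 was downregulated (LFC -0.812), and its call was lost under 13 of 20 alternatives. Cdx2, the transcription factor of intestinal identity, fell from 2367, 2536 and 2646 to 1372, 1137 and 1302 (LFC -0.99 ± 0.09, adjusted p = 2.7e-05).

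Feedback genes of the growth factor and insulin pathways moved in both directions. The share called was 25% for the EGF receptor list and 29.6% for the insulin list. It was 4.76% for immediate early and AP-1 genes and 33.3% for clock genes. Over all genes tested it was 5.81%. Errfi1, an inhibitor of the EGF receptor, rose from 581.7, 600.4 and 688.2 to 4246, 3294 and 3446 (LFC 2.55 ± 0.16, adjusted p = 2.1e-06), and Tgfa, a ligand of that receptor, had an LFC of 2.01 ± 0.16 (adjusted p = 1.2e-05). Dusp1, a MAP kinase phosphatase, was upregulated, and Erbb2 (LFC -0.85), Dusp5 (-0.92) and Dusp4 (-1.08) were downregulated, so that 3 of 24 genes of this group rose and 3 fell. Dusp4 had 97.1, 97.0 and 44.5 normalised counts with PBS and 34.2, 46.1 and 32.0 with Dex, so its groups overlapped, and its call was lost on leaving out 5 of the 6 ZnSO4 libraries in turn, ZnSO4 + PBS replicate 3 being the exception (adjusted p = 0.054 to 0.15). The call of Dusp1 was lost without ZnSO4 + PBS replicate 1 (adjusted p = 0.065). Of 27 genes of insulin, FoxO and PHLPP signalling, 5 were upregulated, with Ddit4, Txnip and Sesn1, a stress-induced mTORC1 inhibitor (LFC 2.03), at the top, and 3 were downregulated, with the Akt phosphatase Phlpp2 lowest (LFC -1.55, adjusted p = 6e-05). Among 21 immediate early and AP-1 genes, Maff was the 1 called gene (LFC 1.42), and Fos (LFC 0.31) and Jun (0.25) were not called. Of 18 clock genes, Per1, Per2, Cry2 and Nfil3 were upregulated, and Nr1d1, a heme-binding repressor of the clock, fell from 114.1, 86.9 and 107.4 to 44.6, 56.7 and 44.9 (LFC -1.07 ± 0.21, adjusted p = 0.0052). Bhlhe41 was downregulated as well, and its call was lost on leaving out 5 of the 6 ZnSO4 libraries in turn, ZnSO4 + PBS replicate 3 being the exception (adjusted p = 0.059 to 0.14).

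The CDK inhibitors and the apoptosis regulators held called members in either direction. Cdkn2b (chr4:89306299-89311039, minus strand), which encodes the CDK4 and CDK6 inhibitor p15, fell from 1322, 1343 and 1567 to 220.9, 185.4 and 236.0, a 6.59-fold fall with an LFC of -2.72 ± 0.11 (adjusted p = 1.3e-07). Cdkn1a, which encodes the inhibitor p21, rose from 2417, 2083 and 2271 to 8687, 5524 and 8240 (LFC 1.73 ± 0.15, adjusted p = 1.9e-05). E2f2 and E2f3, transcription factors of S phase entry, were downregulated with LFCs of -1.27 and -1.14. Of 25 proliferation genes, Rrm2, a subunit of ribonucleotide reductase, was upregulated (LFC 1.55, adjusted p = 8.2e-05) and 24 were not called, which is 4% called where 5.81% of all genes tested were. Pmaip1, which encodes the pro-apoptotic protein NOXA, rose from 545.9, 534.5 and 465.0 to 5496, 2284 and 6705 (LFC 3.23 ± 0.31, adjusted p = 4.8e-05), and the anti-apoptotic genes Bcl2 (LFC 1.20) and Bcl2l1 (0.92) were upregulated too. Bbc3, which encodes PUMA, was downregulated (LFC -1.07, adjusted p = 0.0037). Of 24 apoptosis regulators 4 were upregulated and 1 downregulated, which is 20.8% called.

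Part of the interferon response genes fell with Dex. Of 31 type I interferon-stimulated effectors, 8 were downregulated, where 2.4% of all genes tested were, and 1 was upregulated. The median LFC of the 31 genes was -0.50 beside -0.19 for the same genes in water mice, in which 5 were downregulated. These medians and counts do not show a difference between ZnSO4 and water mice. The count of downregulated effectors was 6 to 8 when each ZnSO4 library was left out, and 6 without ZnSO4 + Dex replicate 2. Ifit1bl1 (chr19:34592891-34601956, minus strand), a member of the family of interferon-induced RNA-binding proteins, fell from 948.5, 792.5 and 779.9 normalised counts to 169.0, 177.7 and 190.1, an LFC of -2.23 ± 0.18 (adjusted p = 1.3e-05). Ifit1 fell from 454.4, 265.4 and 347.3 to 78.8, 91.3 and 76.9 (LFC -2.11 ± 0.23, adjusted p = 0.0001), and Oasl1 from 668.5, 419.2 and 372.3 to 169.0, 144.1 and 218.9 (LFC -1.46 ± 0.26, adjusted p = 0.0026). In these 3 genes no Dex mouse reached a PBS mouse. Isg15, a ubiquitin-like modifier, and the RNA sensor Ddx58 were downregulated with LFCs of -1.003 and -0.81. Usp18, the protease that removes Isg15 from proteins, was the upregulated member, from 48.1, 48.5 and 63.9 to 289.3, 133.5 and 178.3 (LFC 1.90 ± 0.32, adjusted p = 0.0019). Ifit1bl1 and Ifit1 share 19.3% and 10.5% of their sequence with other genes.

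Some transcription factors of the interferon response fell as well. The share downregulated was 17.6% of IRF and STAT genes, 18.8% of the PARP list and 33.3% of apolipoprotein L genes. It was 20% of the SOCS, Pim and STAT3 feedback list, of which 10% were upregulated. Over all genes tested 2.4% were downregulated. Irf1 fell from 1844, 1773 and 1657 to 843.0, 868.5 and 920.6 (LFC -1.003 ± 0.10, adjusted p = 6.5e-05), and Batf2, a partner of Irf1 in interferon signalling, from 162.2, 168.4 and 230.6 to 51.8, 51.9 and 55.5 (LFC -1.81 ± 0.14, adjusted p = 1.1e-05). Irf8 was downregulated with an LFC of -1.11, and 14 of 17 IRF and STAT genes were not called. Of the 16 genes of the PARP family list, Parp9, Parp14 and their partner Dtx3l were downregulated, with Dtx3l at an LFC of -1.28 ± 0.12 (adjusted p = 3.1e-05). Of 9 tested apolipoprotein L genes, 3 were downregulated, led by Apol7c from 286.6, 288.3 and 221.4 to 50.8, 46.1 and 39.5 (LFC -2.54 ± 0.14, adjusted p = 8.2e-07). Apol7c shares 38.1%, Apol10a 28.2% and Apol9b 64.9% of their sequence with other genes, so the split of reads within this family is uncertain. The call of Apol9b was lost on leaving out any ZnSO4 library but ZnSO4 + PBS replicate 3 (adjusted p = 0.063 to 0.15). Socs1 and Socs3, feedback inhibitors of JAK-STAT signalling, and the kinase gene Pim1 were downregulated. The calls of Socs1 and Socs3 were lost without ZnSO4 + Dex replicate 1 (adjusted p = 0.078 and 0.059), that of Socs1 also without ZnSO4 + PBS replicate 3 and that of Socs3 without ZnSO4 + PBS replicate 2. Of the list of 20 SOCS, Pim and STAT3 feedback genes, 4 were downregulated and 2 upregulated, and 1 was downregulated without ZnSO4 + Dex replicate 1. The 23 genes of MHC class I antigen presentation had LFCs of -0.68 to 0.14 and none was called by edgeR, the lowest adjusted p being 0.06. Ciita, the activator of MHC class II genes, fell from 341.3, 762.3 and 234.3 to 107.8, 110.5 and 157.0 (LFC -1.83 ± 0.49, adjusted p = 0.028). Its call was lost without ZnSO4 + PBS replicate 2 (adjusted p = 0.12), ZnSO4 + Dex replicate 1 (0.1) or ZnSO4 + Dex replicate 2 (0.088). The highest of these values belonged to ZnSO4 + PBS replicate 2, which also had the highest B cell marker sum of 7809. The call of Ciita was kept in the fit with a B cell covariate, and the part of B cell RNA in this fall was not tested further.

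The interferon-stimulated response element was searched as GAAANNGAAA on both strands of the same promoters. It stood in 23 of 359 promoters of downregulated genes (6.41%, 21 genes), in 15 of 518 promoters of upregulated genes (2.9%), and in 3.15% of the promoters of tested genes that were not called. Over all promoters the share was 3.44%. Windows of 6 downregulated genes are shown as examples of the element upstream of interferon-induced genes that fell, with the matched letters in capitals, 5′ to 3′ on the strand of the gene:
Ifit1 (chr19:34640749-34640848, plus strand): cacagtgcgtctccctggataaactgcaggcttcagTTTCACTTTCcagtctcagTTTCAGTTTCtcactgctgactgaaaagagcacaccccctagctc
Ifit1bl1 (chr19:34602018-34602117, minus strand): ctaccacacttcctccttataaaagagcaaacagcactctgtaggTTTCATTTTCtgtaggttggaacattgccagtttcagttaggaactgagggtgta
Isg15 (chr4:156200836-156200935, minus strand): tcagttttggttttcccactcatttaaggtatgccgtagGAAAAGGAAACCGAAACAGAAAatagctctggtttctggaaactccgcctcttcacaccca
Cxcl10 (chr5:92349040-92349139, minus strand): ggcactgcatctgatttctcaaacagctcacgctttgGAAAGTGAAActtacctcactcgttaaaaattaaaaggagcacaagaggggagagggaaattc
Apol10a (chr15:77476947-77477046, plus strand): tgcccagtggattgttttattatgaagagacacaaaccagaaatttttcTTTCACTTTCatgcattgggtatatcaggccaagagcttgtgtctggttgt
Socs1 (chr16:10785562-10785661, minus strand): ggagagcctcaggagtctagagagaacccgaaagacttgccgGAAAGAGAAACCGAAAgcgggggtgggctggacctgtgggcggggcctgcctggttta

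Ifit1 holds 2 matches in its window, Isg15 holds 3 overlapping matches and Socs1 holds 2 that overlap. In Ifit1, Ifit1bl1 and Apol10a the match lies on the other strand and reads as its reverse complement.

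Several chemokine and cytokine genes changed with Dex, in both directions. The share called was 34.8% of tested chemokine genes and 25% of tested cytokine genes, where it was 5.81% over all genes tested. Ccl2, a monocyte chemokine, had 5.66, 14.6 and 30.6 normalised counts in the ZnSO4 + PBS mice and no read in any ZnSO4 + Dex mouse. Set against the limit of 3 reads over the group that a count of 0 allows, it was at least 16.7-fold lower (adjusted p = 0.015). Cxcl5, a neutrophil chemokine, had 12.3, 8.24 and 17.6 with PBS and no read with Dex, at least 12.4-fold lower (adjusted p = 0.0077). Cxcl10 fell from 24.5, 36.6 and 37.0 to 4.15, 7.69 and 5.34 (LFC -2.48 ± 0.39, adjusted p = 0.0012), and the cytokine gene Il1b from 26.4, 42.1 and 23.2 to 7.26, 4.80 and 4.27 (LFC -2.46 ± 0.44, adjusted p = 0.0029). Of 23 tested chemokine genes 6 were downregulated, with 4 (without ZnSO4 + PBS replicate 3) to 7 (without ZnSO4 + PBS replicate 1) when a ZnSO4 library was left out, and 2 were upregulated. The upregulated genes were Ccl28, an epithelial chemokine for plasma cells (LFC 1.37, adjusted p = 4.3e-05), and Ccl17 (LFC 2.75, adjusted p = 0.0034), which stayed under 24 normalised counts. Cytokine transcripts were scarce, and 12 of 28 listed cytokine genes had enough counts to be tested. Of these 12, Il1a and Il1b were downregulated and Il18 was upregulated. The call of Il1a was lost on leaving out any ZnSO4 library but ZnSO4 + Dex replicate 3 (adjusted p = 0.064 to 0.16). Il18, an epithelial cytokine of the interleukin 1 family, rose from 194.2, 110.7 and 115.8 to 267.5, 222.9 and 277.7 (LFC 0.87 ± 0.21, adjusted p = 0.015). The call of Il18 was lost without ZnSO4 + PBS replicate 2 or 3 or ZnSO4 + Dex replicate 1 (adjusted p = 0.053 to 0.063), and 0 to 2 cytokine genes were upregulated and 1 or 2 downregulated when a ZnSO4 library was left out.

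Among TNF superfamily ligands and receptors, Tnfsf10, which encodes TRAIL, fell from 777.8, 737.6 and 673.4 to 233.3, 227.7 and 176.2 (LFC -1.78 ± 0.14, adjusted p = 1.3e-05). Fas (LFC -0.92), Tnfrsf11a (-1.16) and Tnfrsf11b (-1.35) were downregulated and Tnfrsf21 was upregulated (1.24), in a list of 22 tested genes with a median LFC of -0.71. Of this list 22.7% were called, where 5.81% of all genes tested were. Within NF-kB signalling, Nfkbia, which encodes the inhibitor IkB-alpha, rose from 926.8, 1308 and 852.1 to 2182, 1848 and 2797 (LFC 1.15 ± 0.23, adjusted p = 0.0063), and Bcl3, a nuclear IkB protein, fell from 322.5, 436.5 and 353.8 to 60.1, 86.5 and 108.9 (LFC -2.12 ± 0.23, adjusted p = 9.3e-05). Of 25 NF-kB genes 2 were upregulated and 2 downregulated (16% called), with 1 to 3 in either direction when a ZnSO4 library was left out. The other upregulated gene, Zfp36, lost its call under 14 of 20 alternatives. The other downregulated gene, Tnip3, lost it under 11 of 18. The necroptosis genes Mlkl (LFC -0.21, adjusted p = 0.43), Ripk3 (0.09, adjusted p = 0.74) and Zbp1 (-0.19, adjusted p = 0.64) were not called, and Casp4, the inflammatory caspase that senses bacterial lipopolysaccharide, was the 1 downregulated gene of 18 in this group (LFC -0.99, adjusted p = 0.0012). That is 5.56% called.

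Genes that epithelium expresses toward microbes split in direction. Lcn2, which encodes the iron-scavenging lipocalin, rose from 20.7, 18.3 and 32.4 to 843.0, 668.7 and 754.0, a 31.5-fold rise with an LFC of 4.98 ± 0.25 (adjusted p = 5.6e-07). The hydrogen peroxide producing oxidase Duox2 fell from 986.2, 1284 and 1141 to 518.4, 376.6 and 925.9 (LFC -0.91 ± 0.25, adjusted p = 0.031), Nox1 was downregulated with an LFC of -1.78 (adjusted p = 0.019), and Nlrp6 with -0.85 (adjusted p = 0.00016). The calls of Duox2 and Nox1 were lost without ZnSO4 + Dex replicate 1 (adjusted p = 0.12 and 0.078), without ZnSO4 + Dex replicate 2 (0.064 and 0.073) and without ZnSO4 + PBS replicate 3 (0.072 and 0.073), and that of Duox2 also without ZnSO4 + PBS replicate 2 (0.097). Of the 20 genes of this group 2 were upregulated and 4 downregulated, which is 30% called where 5.81% of all genes tested were. On leaving out 1 ZnSO4 library, 1 to 3 were upregulated, and 1 (without ZnSO4 + PBS replicate 3), 2 (without ZnSO4 + Dex replicate 1 or 2), 3 (without ZnSO4 + PBS replicate 2 or ZnSO4 + Dex replicate 3) or 4 (without ZnSO4 + PBS replicate 1) were downregulated.

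**Figure D4:**
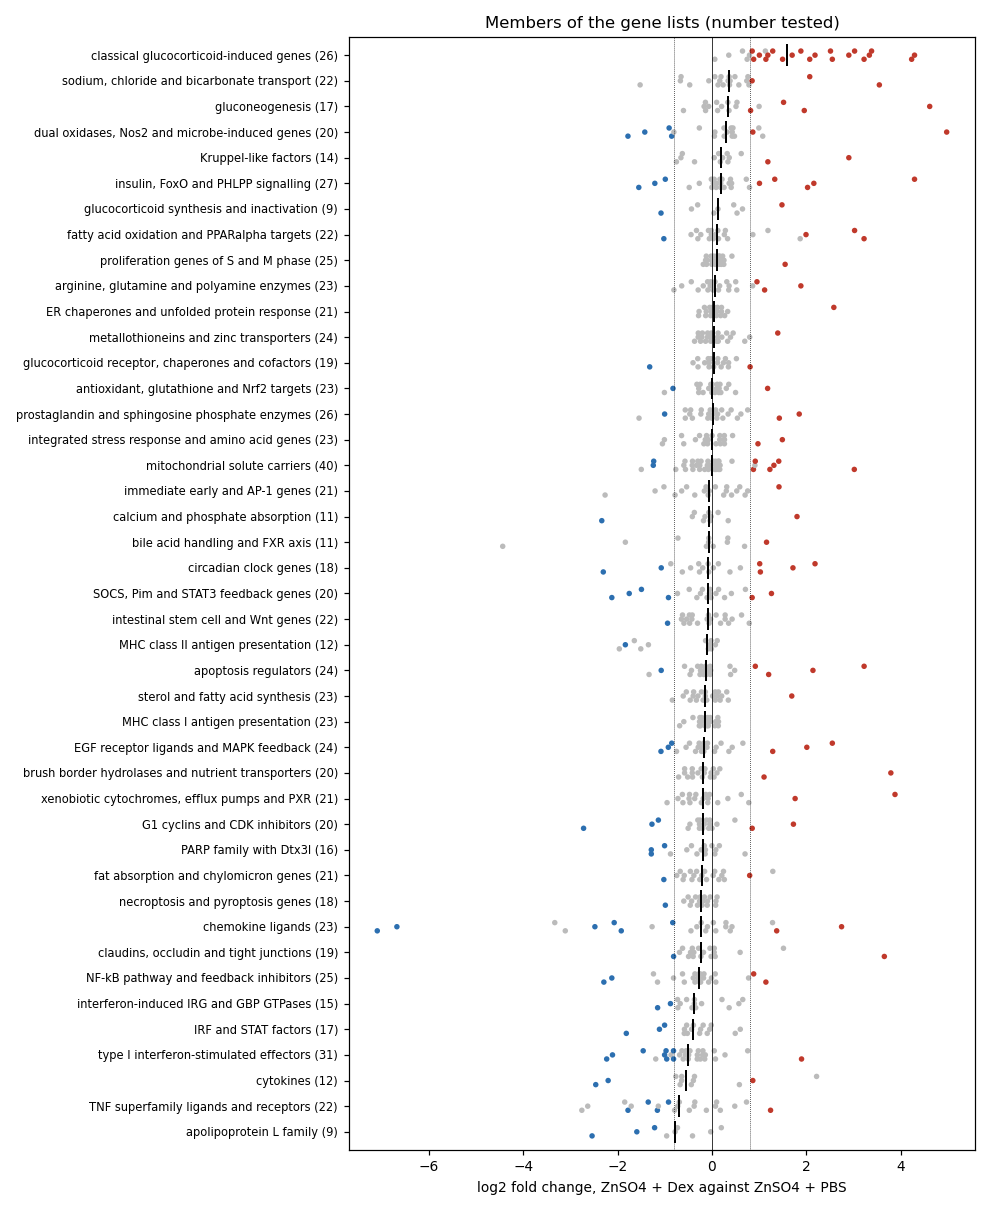
LFC of Dex in ZnSO4 mice (x axis) for each tested member of 43 gene lists, ordered by the list's median (black bar), with the number tested in brackets. Red and blue points are up- and downregulated genes. The median was 1.6 for the 26 classical glucocorticoid-induced genes and -0.78 for the 9 apolipoprotein L genes.

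The 14 largest rises among genes with a mean of at least 1 CPM (counts scaled to the library total) held several transcripts that were near 0 without Dex. The long noncoding RNA BB123696 had 1 read over the ZnSO4 + PBS mice and 313 over the ZnSO4 + Dex mice, a ratio of 344 (95% counting interval 61.3 to 13600). Myot, which encodes the muscle protein myotilin, had 3 reads against 674 (ratio 247, interval 84.1 to 1200), and Gsc, the homeobox gene goosecoid, 2 against 373 (ratio 205, interval 56.3 to 1700). The kallikrein gene Klk1b3 had 1 read against 237 (ratio 260, interval 46.3 to 10300). Another kallikrein gene, Klk1b26, had 0 against 69, at least 25.3-fold higher. Klk1b3 and Klk1b26 share 41.1% and 28.3% of their sequence with other genes. Exact intervals on these ratios cover counting error only. Adh6a, an alcohol dehydrogenase gene at a higher level, rose from 88.6, 65.9 and 32.4 to 2689, 1888 and 1777 (LFC 5.09 ± 0.30, adjusted p = 1.4e-06). Aire, the autoimmune regulator known from the thymus, rose from 0, 3.66 and 0 to 175.2, 106.6 and 123.9. The 14 rises were taken from called genes in which every Dex mouse lay above every PBS mouse. That separation is part of their choice and not a result. Herpud1, a protein of endoplasmic reticulum-associated degradation, rose from 1212, 1337 and 1077 to 7787, 6525 and 7466 (LFC 2.59 ± 0.10, adjusted p = 1.3e-07), and the other 20 genes of the unfolded protein response were not called.

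The 14 largest falls included, beside Cdkn2b, Apol7c and Slc34a2, the genes Aplnr, Edn2, Has2 and Igsf9. Aplnr, the apelin receptor of endothelium, fell from 88.6, 83.3 and 113.9 to 16.6, 16.3 and 10.7 (LFC -2.70 ± 0.29, adjusted p = 9.9e-05), and Edn2, endothelin 2, from 220.6, 238.9 and 274.2 to 58.1, 25.0 and 42.7 (LFC -2.55 ± 0.26, adjusted p = 6.5e-05). Kdr, the VEGF receptor of endothelium, was downregulated with an LFC of -0.95 ± 0.12 (adjusted p = 0.0003), and Lyve1, the hyaluronan receptor of lymphatic vessels and some macrophages, was upregulated from 264.0, 247.1 and 263.1 to 612.8, 587.0 and 654.7 (LFC 1.26 ± 0.08, adjusted p = 2.8e-06). Of 8 endothelium markers 1 was upregulated (Lyve1) and 1 downregulated (Kdr), with a median LFC of 0.12. Over all genes tested 3.41% were upregulated and 2.4% downregulated. The summed level of the 8 endothelium markers was 2267 to 2380 normalised counts with PBS and 2488 to 2762 with Dex. Has2, a hyaluronan synthase, fell from 25.5, 18.3 and 24.1 to 5.18, 3.84 and 4.27 (LFC -2.32 ± 0.35, adjusted p = 0.001). Mrc1, the mannose receptor gene of macrophages, was upregulated (LFC 0.84, adjusted p = 0.0055), and the summed level of 13 markers of macrophages and dendritic cells was 4936 to 7275 with PBS and 6826 to 7487 with Dex. Igsf9, a cell adhesion gene, fell from 1666, 1906 and 2270 to 278.9, 256.5 and 449.6 (LFC -2.57 ± 0.21, adjusted p = 1.5e-05).

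The Dex effect of ZnSO4 mice was then set beside that of water mice, a contrast that shares no library with it. In water mice 444 genes were upregulated (2.79%) and 261 downregulated (1.64%), 4.42% together. Of the genes upregulated in ZnSO4 mice, 353 were upregulated in water mice as well, which is 65% of the ZnSO4 list and 79.5% of the water list. Of the downregulated genes 183 were shared, 47.8% of the ZnSO4 list and 70.1% of the water list. No gene was called in opposite directions. The shared upregulated genes had a median LFC of 1.5 in ZnSO4 and 1.42 in water mice, and the shared downregulated genes -1.27 and -1.20.

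A further 190 upregulated and 200 downregulated genes were called in ZnSO4 mice and not in water mice. The LFC in water mice had the same sign for 185 of the 190 and for 196 of the 200, with medians of 0.69 and -0.61 beside 1.08 and -1 in ZnSO4 mice. Conversely, 91 upregulated and 78 downregulated genes were called in water mice and not in ZnSO4 mice. Their median LFCs were 0.7 and -0.71 in ZnSO4 mice beside 1.05 and -1.12 in water mice. A call in one group of mice and not in the other does not show a difference between them. When the difference of the Dex effects was tested gene by gene as an interaction in edgeR, 0 of 15938 genes passed an adjusted p of 0.05, the lowest adjusted p being 0.95, and 794 genes (4.98%) had an unadjusted p below 0.05. DESeq2 gave 6 genes at an adjusted p below 0.05.

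**Figure D5:**
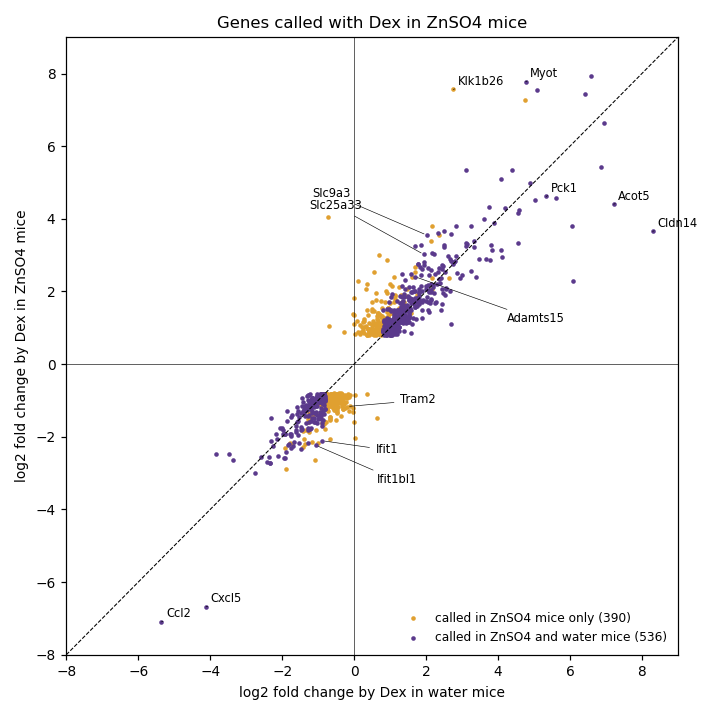
LFC of Dex in water mice (x axis) against LFC of Dex in ZnSO4 mice (y axis) for the 926 genes called in ZnSO4 mice. The dashed line marks equal change, purple genes were also called in water mice, and 0 genes passed the edgeR test of the difference. The genes were chosen by their ZnSO4 values. Those called in ZnSO4 mice alone had median LFCs of 0.69 and -0.61 on the x axis, beside 1.08 and -1 on the y axis. The part of the choice of genes in this was not tested.

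The called genes with the lowest unadjusted interaction p are given with their values in both kinds of mice. Slc25a33, a mitochondrial pyrimidine nucleotide carrier, rose from 38.7, 50.3 and 53.7 to 345.3, 372.8 and 443.2 in ZnSO4 mice, an LFC of 3.02 beside 1.94 in water mice. Slc25a32, a mitochondrial folate or FAD carrier, rose from 234.8, 242.5 and 243.6 to 712.3, 586.0 and 629.0 in ZnSO4 mice, with LFCs of 1.42 and 0.67. Of 40 tested genes of the mitochondrial solute carrier family, 6 were upregulated and 2 downregulated in ZnSO4 mice (20% called, where 5.81% of all genes tested were), and 2 and 0 in water mice. On leaving out 1 ZnSO4 library, 4 or 5 were upregulated and 1 to 3 downregulated in ZnSO4 mice. These counts do not show a difference between ZnSO4 and water mice. Tram2, a gene of the endoplasmic reticulum translocon, fell from 515.7, 538.1 and 455.7 to 246.8, 250.8 and 174.1, with LFCs of -1.17 and -0.21. Adamts15, a metalloproteinase of the extracellular matrix, had LFCs of 2.41 and 1.69. Ifit1bl1 had LFCs of -2.23 and -1.07, and its mean without Dex was 840.3 ± 93.9 (SD, n = 3) in ZnSO4 and 3756 ± 968.7 (SD, n = 3) in water mice. The gene 2410002F23Rik rose from 164.1, 185.8 and 117.6 to 489.4, 422.7 and 399.4 in ZnSO4 mice, with LFCs of 1.49 and 0.35, and shares 14.6% of its sequence with other genes. The immunoglobulin variable gene Igkv6-20, downregulated in water mice, had LFCs of 2.12 (adjusted p = 0.052) and -2.53 (adjusted p = 0.038). Its groups overlapped in ZnSO4 mice, and 78% of its sequence is shared. Unadjusted interaction p-values in edgeR were 0.00032 for Slc25a33, 0.00027 for Slc25a32, 0.00028 for Tram2, 0.00047 for Ifit1bl1, 0.00045 for 2410002F23Rik and 0.0004 for Igkv6-20, and the adjusted p was 0.95 for each of the 6. DESeq2 called Tram2, Ifit1bl1 and Igkv6-20 at an adjusted p of 0.028 and 2410002F23Rik at 0.037. Slc25a33 has 14.9% of its exonic length under a gene on the other strand.

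Some well-known Dex targets started from different levels in ZnSO4 and water mice. Pck1 stood at 636.4 ± 65.0 (SD, n = 3) in ZnSO4 + PBS and 186.1 ± 69.2 in water + PBS mice, and reached 15640 ± 5150 and 7532 ± 1802 with Dex, with LFCs of 4.62 and 5.34. Slc9a3 stood at 88.0 ± 12.8 and 487.3 ± 233.7 and reached 1034 ± 346.3 and 1980 ± 150.7, with LFCs of 3.55 and 2.02. Fkbp5 stood at 1061 ± 96.0 and 1107 ± 127.8 and reached 11090 ± 1004 and 11190 ± 1057, with LFCs of 3.39 and 3.34. The interaction p was 0.12 for Pck1, 0.0068 for Slc9a3 and 0.77 for Fkbp5 before adjustment, and none of the 3 passed after adjustment in edgeR.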

How the data were processed

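RNA was measured by stranded, single-end RNA-seq of whole ileum. Per the labels and methods, the authors mapped reads to mm10 with HISAT2 2.0.4, assigned them to genes with featureCounts and left out multimapping reads, so near-identical genes are undercounted. The annotation release and strand setting are not given in the sources used here. The deposited values are raw counts per Ensembl gene, and 15938 of 54838 genes passed edgeR's filterByExpr with a minimum count of 10 (99.8% of counts). Samples were grouped by their titles. All 12 libraries were fitted with 4 group means in edgeR 4.0.16 (R 4.3.3) with TMM factors and quasi-likelihood F tests, and the Dex effects and their difference were taken as contrasts. The fit was tested on simulated data. Symbols and coordinates came from GENCODE M21. Shared sequence is the share of a gene's 31-base words found in other genes.

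Named genes are the 14 largest rises and falls and up to 4 called members of each gene list. Chosen receptor, zinc and necroptosis genes and the 8 called genes with the lowest interaction p were added. The largest rises and falls were taken from called genes whose groups of mice did not overlap, leaving out predicted genes. The members and lists were chosen with earlier results of these data known. Kdr, Lyve1, Mrc1, Cdx2, Fam107a, Kcna5, Isg15 and further list members were named after their values were seen. Alternatives used DESeq2 1.42.0, other factors, filters and cut-offs, a replicate block and left-out libraries. Intervals on ratios of reads cover counting error only. Some items are not reported here.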

Additional observations from a re-analysis of the deposited data

Results flagged for a closer look

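The immunoglobulin variable gene Igkv9-124 had LFCs of opposite sign in ZnSO4 and water mice, and the change in ZnSO4 mice did not pass the test. It had 34.9, 22.9 and 22.2 normalised counts in the ZnSO4 + PBS mice and 38.4, 83.6 and 35.2 in the ZnSO4 + Dex mice, with every Dex mouse above every PBS mouse (LFC 0.98, edgeR adjusted p = 0.24), while in water mice every Dex mouse lay below every PBS mouse (LFC -2.11, adjusted p = 0.018). The difference of the Dex effects was 3.09 on the log2 scale. Its edgeR p was 0.00089 before and 0.95 after adjustment over all genes, and DESeq2 gave an adjusted p of 0.028. Igkv9-124 shares 51.4% of its sequence with other genes.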

How the results depend on the processing

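With a cut-off on size of 1 in place of 0.8, 239 genes were downregulated in ZnSO4 mice and 108 in ZnSO4 and water mice. With no cut-off on size the counts up and down were 1060 and 1129 in ZnSO4 mice, 863 and 719 in water mice, and 664 and 532 in both. With unadjusted p-values 578 genes were downregulated in ZnSO4 and 453 in water mice, and 794 had an interaction. A test of the size itself against 0.8 (edgeR's glmTreat) called 198 up and 77 down in ZnSO4 mice, 152 and 42 in water mice, and 135 and 33 in both. DESeq2 gave 6 genes with an interaction. Other factors, other filters, a B cell covariate and fits on the 6 libraries of a contrast alone, which give no interaction, kept every count within 1.5 times.

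On leaving out 1 library at a time, upregulated genes numbered 441 to 550 in ZnSO4 mice, 355 to 456 in water mice and 296 to 370 in both, and downregulated genes 321 to 444, 193 to 270 and 151 to 174. The edgeR interaction count was 0 each time. The labels do not say whether the replicate numbers pair the mice. Residuals of same-numbered ZnSO4 mice correlated by 0.137, -0.124 and -0.222, and those of the other pairs by -0.132 to 0.237. With 3 mice a group these values cannot decide on a pairing. A replicate block gave 521 and 368 calls in ZnSO4 mice, 434 and 255 in water mice, and 352 and 180 in both.

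The check of single genes took in the alternatives that kept the cut-offs of 0.05 and 0.8. Other cut-offs, unadjusted p-values and glmTreat were left out of it. Of 130 called named genes, 104 kept their call under every alternative of this check and 26 lost it under 1 or more (Bhlhe41, Nrip1, Slc30a10, Dusp1, Dusp4, Slc37a4, Arg2, Gucy2c, Slc10a2, Dgat2, Cldn5, Nox1, Duoxa2, Duox2, Gbp5, Gbp4, Socs3, Socs1, Ciita, Apol9b, Tnip3, Zfp36, Il1a, Il18, Nfe2l2 and Sp5), and no called gene changed sign. Nrip1, Slc37a4, Gucy2c and Nfe2l2 kept an adjusted p below 0.05 and lost the cut-off on size. Ripk3, not called, had LFCs of -0.00982 (without ZnSO4 + PBS replicate 1) to 0.171 (without ZnSO4 + PBS replicate 2) on leaving out a library. Counts of list members under left-out libraries were added after seeing that ZnSO4 + Dex replicate 2 stood apart. With 3 mice a group, low-count genes had wide errors.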

Other observations

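Further groups of genes held called members. The share called was 13% for arginine, glutamine and polyamine genes and 11.5% for prostaglandin and sphingosine phosphate genes. Over all genes tested it was 5.81%. Of 23 genes of arginine, glutamine and polyamine metabolism, Glul, Arg2 (arginase 2, LFC 1.12, adjusted p = 0.012) and Amd1 (which makes the aminopropyl donor of polyamines, LFC 0.96, adjusted p = 0.0016) were upregulated and 0 downregulated. The call of Arg2 was lost without ZnSO4 + PBS replicate 2 or ZnSO4 + Dex replicate 1 (adjusted p = 0.051 and 0.053), and 82.8% of the sequence of Amd1 is shared with other genes. Of 26 prostaglandin and sphingosine phosphate genes, Hpgd, which degrades prostaglandin E, was upregulated from 3543, 3285 and 4894 to 12600, 8777 and 10210 normalised counts (LFC 1.43 ± 0.17, adjusted p = 0.00019), and Sphk1, a sphingosine kinase, from 30.2, 28.4 and 24.1 to 99.5, 95.1 and 104.7 (LFC 1.85 ± 0.21, adjusted p = 0.00013). Ptges, which makes prostaglandin E, was downregulated (LFC -1.002, adjusted p = 0.0074).

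The next groups held 1 or 2 called genes each. The share called was 9.52% for xenobiotic metabolism, 8.7% for antioxidant genes and 8.7% for the integrated stress response. It was 4.55% for stem cell and Wnt genes. These shares lie near the 5.81% of all genes tested and are no result about the groups. Of 21 genes of xenobiotic metabolism, Cyp2b10 (LFC 3.88, adjusted p = 0.0011) and Sult1a1 (LFC 1.76, adjusted p = 3e-05) were upregulated. Cyp2b10 ranged from 0.926 to 16.03 normalised counts with PBS and from 59.6 to 208.4 with Dex. Of 23 antioxidant genes, Gclc, the rate-limiting enzyme of glutathione synthesis, was upregulated (LFC 1.18, adjusted p = 0.00022) and Nfe2l2, which encodes the factor Nrf2, was downregulated from 1859, 1860 and 1896 to 1118, 1005 and 1048 (LFC -0.82 ± 0.07, adjusted p = 1.2e-05), with an LFC of -0.79 and no call without ZnSO4 + Dex replicate 2. Of 23 genes of the integrated stress response and amino acid supply, Slc7a5, an amino acid transporter (LFC 0.98), and Vldlr, a lipoprotein receptor (LFC 1.49), were upregulated. Of 22 stem cell and Wnt genes, Sp5 was downregulated (LFC -0.94, adjusted p = 0.015), and its call was lost without ZnSO4 + PBS replicate 1 or 3 or ZnSO4 + Dex replicate 1. Slc40a1, the iron exporter ferroportin, was downregulated from 1296, 1041 and 1319 to 669.8, 598.5 and 546.8 (LFC -1.01 ± 0.14, adjusted p = 0.00056). The eosinophil gene Epx had 0.943, 1.83 and 0.926 normalised counts with PBS and 14.5, 9.61 and 11.8 with Dex (adjusted p = 0.00085).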
